A study of Mus musculus with 8 samples.

Results

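Mag, Mbp, Mobp, Cnp, Mal, Cldn11 and Ugt8a are 7 genes of central nervous system myelin, and they were measured here as every non-control probe that the array's annotation assigns to one of these symbols. This gave 11 probes for the 7 genes, of 31399 probes with a symbol and 23688 symbols on the array. All 7 genes were among the 16780 genes tested. The samples were total RNA of cortex or hippocampus, snap-frozen, from Tet1 knockout (KO) and wild-type (WT) mice, which were naive and of a 129 C57BL6 background. There were 2 samples in each of 4 groups, namely KO cortex, WT cortex, KO hippocampus and WT hippocampus. Tet1 encodes an enzyme that converts methylated cytosine in DNA to its hydroxymethylated form. The labels say neither which part of Tet1 was removed nor how old the mice were. Each of 4 two-colour arrays held a KO sample labelled with Cy5 and the WT sample of the same tissue and number labelled with Cy3, so dye and genotype cannot be told apart in a KO over WT ratio.

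Oligodendrocytes wrap axons in myelin, a stack of plasma membrane that speeds conduction, and they are dense in white matter tracts such as the corpus callosum, which lies between cortex and hippocampus. The genes encode different parts of that membrane and its assembly. Mag encodes an adhesion molecule of the innermost layer facing the axon, and Mbp and Mobp encode basic proteins on the cytoplasmic side, Mbp being required for compaction. Cnp encodes a cyclic nucleotide phosphodiesterase of uncompacted myelin, Mal a proteolipid of membrane traffic, Cldn11 the claudin of myelin tight junctions, and Ugt8a the enzyme that makes the galactosylceramide typical of myelin lipid. In whole tissue, fewer oligodendrocytes and less RNA per oligodendrocyte cannot be told apart.

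The probes are given with the array's positions in mouse build mm9, and the annotation of exons in that build was not used here. For Mag (A_55_P2062757), the probe lies at chr7:31684202-31684261 on the minus strand. The brightest Mobp probe (A_55_P1958798) lies at chr9:120085150-120085209 on the plus strand, another (A_51_P291224) at chr9:120077006-120077065 and the dimmest (A_55_P1958793) at chr9:120078400-120078459. Those of Cnp (A_51_P232901, chr11:100442617-100442676) and Cldn11 (A_51_P409452, chr3:31062922-31062981) are on the plus strand, and those of Mal (A_55_P2113160, chr2:127458976-127459035) and Ugt8a (A_52_P439263, chr3:125568995-125569054) on the minus strand. The 3 Mbp probes are A_52_P604195, annotated as transcript variant 8, and A_52_P329451 and A_55_P1992160, both annotated as variant 7. The stretches below, given for 8 of the 11 probes and not for Mbp, show what each reads, with the polyadenylation signal AATAAA in capitals where it occurs. A_51_P291224 is given whole because it lies furthest 5′ of the 3 Mobp probes, and the others by 30 bases.
Mag A_55_P2062757: aaagggacatgaAATAAAtgtcctaatgac
Mobp A_55_P1958798: taacaagaactcAATAAAtacttgctgact
Mobp A_51_P291224: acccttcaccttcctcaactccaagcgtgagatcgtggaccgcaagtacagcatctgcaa
Mobp A_55_P1958793: cttcaaacttataaaaatcttactgcttta
Cnp A_51_P232901: acactgtacctagggtgatggtttcggtca
Mal A_55_P2113160: tcaatgtttcagatttttaatcattaaaag
Cldn11 A_51_P409452: atatgcAATAAAtaatagtacgaagattat
Ugt8a A_52_P439263: aggacctccatgttgaaccacttactaaat

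TET enzymes act on CpG dinucleotides, so the CpG content of the members' promoters is given as context for a Tet1 mutant. Of the 7 genes, 6 had a promoter in the RefSeq table of build GRCm38.p6. The 250 bases before the annotated start held 32 CpG in Ugt8a, 19 in Cldn11, 13 in Cnp, 7 in Mal, 4 in Mobp, and 3, 3 and 2 at the 3 starts listed for Mag. Over 27025 genes the median was 6, with quartiles of 2 and 16. The genes thus range from CpG-poor to CpG-dense, with Ugt8a having more than 95.6% of genes. ACAAAG or ACAATG, core letters of sites bound by Sox factors, occurred on either strand in the windows of Mag, Mobp and Cnp, or 3 of 6 genes, against 25.5% of all genes, and the Mobp window held 6 matches. The windows at the lower and upper ends of CpG content are shown 5′ to 3′ on the gene's strand with CG in capitals. That of Mag (first listed start) is chr7:30914864-30915113 on the minus strand, that of Mobp chr9:120149492-120149741 on the plus strand and that of Ugt8a chr3:125938653-125938902 on the minus strand.
Mag promoter: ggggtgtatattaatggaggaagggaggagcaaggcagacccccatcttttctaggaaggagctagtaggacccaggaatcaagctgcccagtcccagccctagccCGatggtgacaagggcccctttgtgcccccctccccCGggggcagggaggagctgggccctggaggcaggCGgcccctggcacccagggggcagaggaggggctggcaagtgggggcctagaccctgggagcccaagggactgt
Mobp promoter: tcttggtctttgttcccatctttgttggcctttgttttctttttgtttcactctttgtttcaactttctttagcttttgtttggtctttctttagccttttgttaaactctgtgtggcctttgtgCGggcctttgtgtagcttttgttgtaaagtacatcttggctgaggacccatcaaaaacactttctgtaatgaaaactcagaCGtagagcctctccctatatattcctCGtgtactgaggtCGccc
Ugt8a promoter: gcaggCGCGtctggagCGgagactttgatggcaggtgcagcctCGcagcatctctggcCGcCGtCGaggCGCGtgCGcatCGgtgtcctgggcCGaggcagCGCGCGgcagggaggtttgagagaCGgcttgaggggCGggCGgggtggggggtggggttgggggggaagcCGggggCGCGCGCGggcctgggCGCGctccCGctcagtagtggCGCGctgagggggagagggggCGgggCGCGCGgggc

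All 4 arrays lay on 1 slide, and in each channel 49.7% to 67.2% of spots were well above background, with no spot saturated. Of the 11 probes, 10 were well above background in all 8 samples and 1 Mbp probe in each of the 6 samples where it was measured. The defining oligodendrocyte genes Mog, Sox10, Olig2, Pdgfra and Cspg4 were well above background in all 8 samples too. The Tet1 probes did not show a large loss: the pair well above background in all 8 samples gave log2 ratios of -0.30 to -0.10, and the remaining probe, well above background in 4 samples, 0.15 to 0.26. A probe outside the removed part checks nothing about the genotype. The labels do not say that replicates came from separate animals, so p-values cover only the variation among the samples as deposited, and that may be technical. The precision of every value is limited by the small number of arrays.

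No myelin gene passed the threshold in any comparison of KO with WT. With limma's moderated test and Benjamini-Hochberg adjustment over all genes tested at 0.05, 0 of 7 were called in cortex (background 0.0596% of genes), 0 of 7 in hippocampus (0.0179%) and 0 of 7 in the mean of both tissues (10.9%). At an unadjusted p under 0.05 the counts of members were 0, 1 and 2 of 7, against 21.1%, 23.7% and 33.8% of all genes. Levels below are log2 channel signals after normalisation, and a ratio is the KO level minus the WT level on one array. For every member, the lowest or the highest of the 4 ratios was on the array of hippocampus replicate 2.

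Mag levels were 13.99 and 14.26 in KO cortex, against 14.53 and 14.36 in WT cortex. In hippocampus they were 14.24 and 13.87 in KO, against 14.39 and 14.66 in WT. The KO values lay below the WT values of their tissue without overlap, as they did for Cnp. Here and for the genes below, the share of all genes without such overlap was not counted. A lack of overlap between KO and WT thus shows nothing particular to a member. Its ratios were -0.55 and -0.10 in cortex and -0.14 and -0.79 in hippocampus. The fitted ratio was -0.32 ± 0.19 in cortex (SE, adjusted p = 0.391), -0.47 ± 0.19 in hippocampus (adjusted p = 0.234) and -0.40 ± 0.14 in the mean of both (adjusted p = 0.123, 95% interval -0.75 to -0.04 without adjustment). Over the alternative ways of processing, the mean of both ranged from -0.56 to -0.076 and the cortex value from -0.55 to -0.030.

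Mal levels were 14.51 and 14.77 in KO cortex, against 15.03 and 15.08 in WT cortex. They were 15.14 and 14.40 in KO hippocampus, against 15.10 and 15.35 in WT hippocampus. The groups overlapped in hippocampus, where replicate 1 of KO stood level with WT, and not in cortex. Its ratios were -0.52 and -0.31 in cortex and 0.04 and -0.95 in hippocampus. The mean over both tissues was -0.44 ± 0.17 (adjusted p = 0.157). The hippocampus value of -0.46 ± 0.24 was 0.04 without replicate 2.

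Cnp levels were 13.67 and 13.97 in KO cortex, against 14.00 and 13.98 in WT cortex, and in hippocampus 13.96 and 13.64 in KO, against 14.02 and 14.29 in WT. All 4 ratios were at or below 0, with -0.34 and -0.01 in cortex and -0.06 and -0.64 in hippocampus. A near-zero ratio stood beside a clearly negative one in each tissue. The fitted values were -0.17 ± 0.17 (adjusted p = 0.585) in cortex and -0.35 ± 0.17 (adjusted p = 0.281) in hippocampus.

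Ugt8a levels were 10.17 and 10.37 in KO cortex, against 10.42 and 10.45 in WT cortex. In hippocampus they were 10.57 and 10.07 in KO, against 10.43 and 10.77 in WT, so the groups overlapped there. The ratios were -0.25 and -0.08 in cortex and 0.14 and -0.69 in hippocampus. The fit gave -0.17 ± 0.21 (adjusted p = 0.670) in cortex and -0.28 ± 0.21 (adjusted p = 0.461) in hippocampus, and the hippocampus value was 0.14 without replicate 2.

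Cldn11 levels were 13.01 and 13.21 in KO cortex, against 13.05 and 13.09 in WT cortex. In hippocampus they were 13.46 and 12.72 in KO, against 13.20 and 13.36 in WT. The KO values lay on both sides of the WT values in each tissue. The ratios were -0.04, 0.12, 0.26 and -0.63 in the order cortex 1, cortex 2, hippocampus 1 and hippocampus 2. The fitted values were 0.04 ± 0.22 (adjusted p = 0.932) in cortex and -0.19 ± 0.22 (adjusted p = 0.635) in hippocampus.

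Mobp was read by 3 probes. The brightest gave levels of 12.97 and 13.57 in KO cortex, against 13.08 and 13.39 in WT cortex, and of 13.32 and 13.24 in KO hippocampus, against 13.32 and 13.54 in WT hippocampus. Its ratios in the same order of arrays were -0.11, 0.19, 0.00 and -0.30. The probe A_51_P291224 gave -0.17, 0.08, 0.14 and -0.52, and A_55_P1958793 gave -0.06, 0.14, 0.34 and -0.26. The 3 probes had the same sign on each array, with the brightest just above 0 on hippocampus 1, and none passed in either tissue in a fit of every probe (adjusted p = 0.482 to 0.902). By its brightest probe Mobp had the smallest spread of the 7 genes over arrays, and its fitted ratio was 0.04 ± 0.12 (adjusted p = 0.882) in cortex and -0.15 ± 0.12 (adjusted p = 0.477) in hippocampus.

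Mbp was the member whose probes disagreed. The brightest probe, A_52_P604195, gave levels of 13.21 and 13.18 in KO cortex, against 12.81 and 12.87 in WT cortex. In hippocampus it gave 13.28 and 13.56 in KO, against 13.15 and 12.77 in WT. The KO values lay above the WT values in each tissue, with ratios of 0.39, 0.32, 0.13 and 0.78 over the arrays. The next brightest probe, A_52_P329451, gave 12.65 and 12.87 in KO cortex, against 12.89 and 13.11 in WT cortex, and 13.20 and 12.72 in KO hippocampus, against 13.23 and 13.43 in WT hippocampus. Its ratios were -0.24, -0.23, -0.03 and -0.71, below 0 wherever those of the other probe were above 0. The dimmest probe, A_55_P1992160, had an outlying spot on the array of cortex 1 and was not tested. It gave -0.30, -0.08 and 0.10 on the remaining arrays.

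The 2 brighter Mbp probes differed by 0.63, 0.55, 0.16 and 1.49 on the 4 arrays, with a mean of 0.71 ± 0.56 (SD, n = 4 arrays). The difference was above 0 on 4 of 4 arrays, and an exact two-sided sign-flip permutation test gave p = 0.125, the smallest that 4 arrays allow. Any 4 differences of one sign give that p, so the test adds nothing to the signs. The Mbp locus makes several splice forms and the longer golli transcripts, and which of these each probe reads was not tested. By the brightest probe the fitted ratio was 0.35 ± 0.16 in cortex (adjusted p = 0.30), 0.46 ± 0.16 in hippocampus (adjusted p = 0.197) and 0.41 ± 0.12 in the mean of both (adjusted p = 0.0896). A_52_P329451 had -0.30 ± 0.12 in the mean (adjusted p = 0.150 over every probe tested). Averaging the Mbp probes put the mean of both tissues at 0.05 (adjusted p = 0.444). Median centring, used instead of loess, took the brightest probe past the threshold in cortex (0.56, adjusted p = 0.0451), hippocampus (0.70, adjusted p = 0.0204) and the mean of both (0.63, adjusted p = 0.00691). With median centring, however, 7369, 8374 and 10524 of 16780 genes were called in cortex, hippocampus and the mean. Mbp was 1 of 7 members called in each, so passing there does not set Mbp apart from genes at large.

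**Figure D1:**
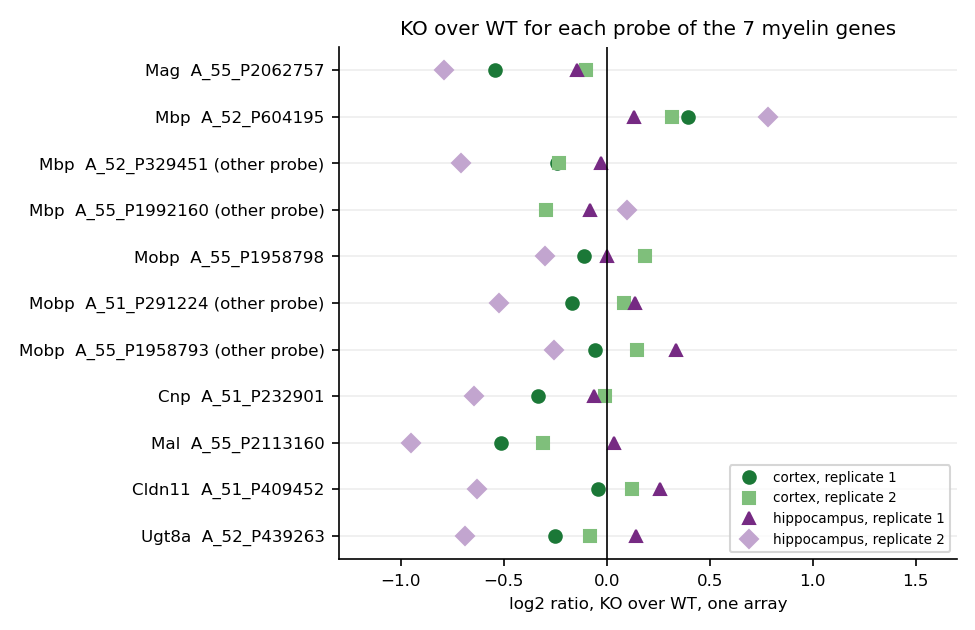
Log2 ratio of KO over WT (x axis) for each of the 11 probes (rows), 1 point per array and no error bars, with green for cortex and purple for hippocampus. The brightest Mbp probe lies above 0 on all 4 arrays (0.13 to 0.78) and A_52_P329451 below 0 (-0.71 to -0.03), while the hippocampus replicate 2 array gives -0.95 to -0.30 for the brightest probes of the other genes.

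**Figure D2:**
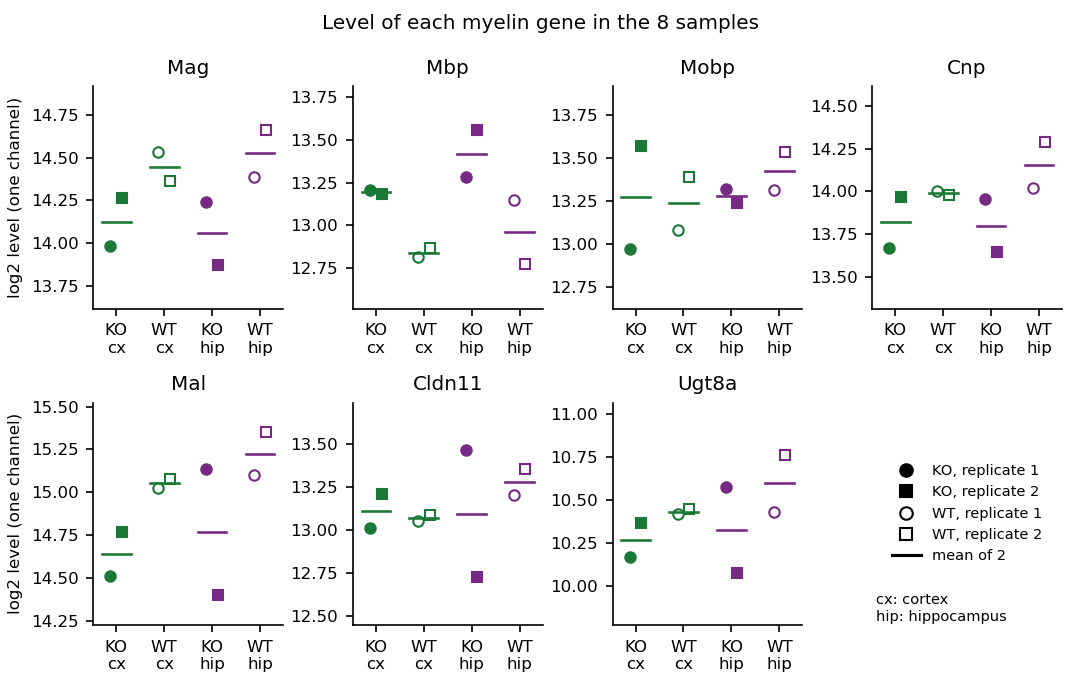
Log2 level of the brightest probe of each gene (y axis, the same span in every panel) in the 8 samples, filled for KO and open for WT, with a line at the mean of 2 samples. KO hippocampus replicate 2 is the lowest KO sample for Mag (13.87), Cnp (13.64), Mal (14.40), Cldn11 (12.72) and Ugt8a (10.07) and the highest for Mbp (13.56). WT hippocampus replicate 2 is the highest WT sample for Mag (14.66), Cnp (14.29), Mal (15.35), Cldn11 (13.36), Ugt8a (10.77) and Mobp (13.54). It is the lowest WT sample for Mbp (12.77).

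The members varied over the arrays more than most genes did. Their 4 ratios spanned 0.49 for Mobp to 0.99 for Mal, against a median of 0.25 over all genes tested, and 82.2% to 96.8% of genes had a smaller span. Within the list the median ratio was -0.25, -0.01, 0.04 and -0.64 over the arrays, against 0.03 on each array for all genes tested. On hippocampus replicate 2, 6 of 7 members lay below 0, and each of those but Mobp was in the lowest 3.61% of genes, while Mbp was at 98.9%. On hippocampus replicate 1, 2 of 7 lay below 0. The fitted median over members was -0.17 in cortex and -0.28 in hippocampus, against 0.04 and 0.02 for all genes.

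KO over WT did not differ between cortex and hippocampus by more than the spread between arrays. The difference, cortex minus hippocampus, was called for 0 of 7 members (0% of genes) and for 0 of 16780 genes in limma, 750 of which had an unadjusted p under 0.05. It ranged over the members from -0.10 ± 0.23 for Mbp to 0.23 ± 0.31 for Cldn11, all with an adjusted p of 0.9999. The unadjusted 95% intervals of the members had extremes of -0.86 and 1.05, which are no limit of detection. Larger differences in other genes, such as 2.49 ± 0.31 for Slc13a4, were not called either (adjusted p = 0.875). With hippocampus replicate 2 left out, the difference changed sign for 6 of the 7 members, Mobp being the exception.

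**Figure D3:**
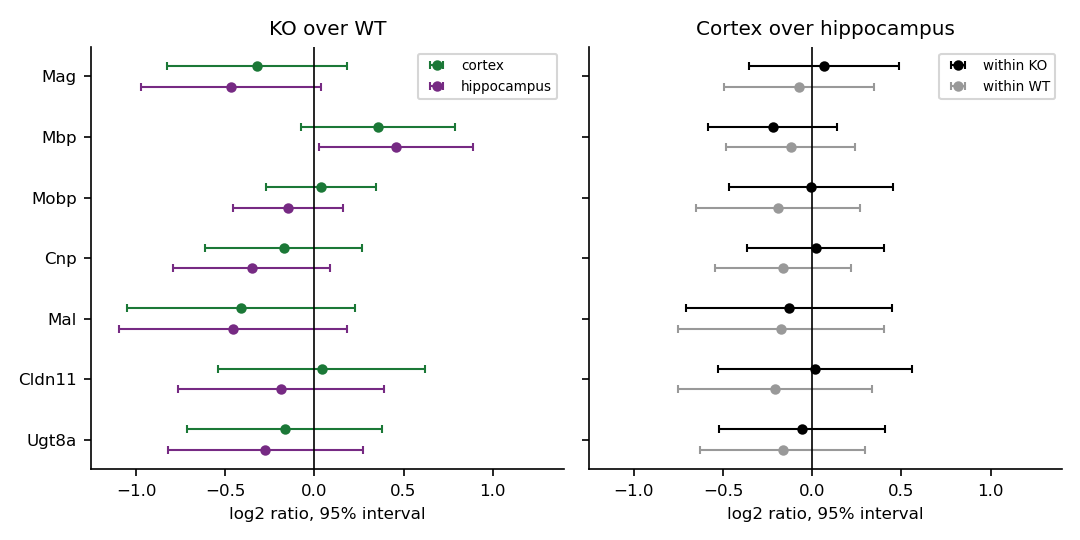
Fitted log2 ratio (x axis, points) with its unadjusted 95% interval (bars) for the 7 genes, KO over WT by tissue on the left and cortex over hippocampus by genotype on the right. Apart from Mbp in hippocampus (0.02 to 0.89) every interval includes 0.

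The other genes of oligodendrocytes and myelin were taken from 5 lists of 102 symbols in all, of which 97 were on the array and 96 tested. In either tissue alone limma called 0 of 96, with 9 in cortex and 15 in hippocampus at an unadjusted p under 0.05, against 21.1% and 23.7% of all genes. Over both tissues together 6 of 96 were called, 3 higher and 3 lower in KO, against 10.9% of all genes. The list median was -0.05 in cortex, -0.12 in hippocampus and -0.11 in the mean, against 0.04, 0.02 and 0.03 for all genes, and 69 of 96 lay below 0 in the mean, against 43.5% of all genes.

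Those lower in KO were a pair of transcription factors and a kinase. Nkx2-2, a homeobox factor of the oligodendrocyte lineage, gave ratios of -0.39, -0.16, -0.40 and -0.43 over the arrays (mean -0.34 ± 0.06, adjusted p = 0.0403). Tcf7l2, a Wnt effector of newly formed oligodendrocytes that also marks thalamus, gave -0.19, -0.26, -0.39 and -0.43 (mean -0.32 ± 0.05, adjusted p = 0.0336), and its WT cortex signals were not well above background. Fyn, a Src-family kinase that acts in myelination, gave -0.27, -0.26, -0.15 and -0.20 (mean -0.22 ± 0.04, adjusted p = 0.0489). All 4 arrays had the same sign for each of these 3 genes. For Tcf7l2 the cortex ratios, and so part of its mean, rest on those dim WT signals.

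Those higher in KO were Gpm6b, Dusp15 and Neu4. Gpm6b, a membrane proteolipid that neurons also express, gave ratios of 0.15, 0.18, 0.38 and 0.30 (mean 0.25 ± 0.05, adjusted p = 0.0435). Dusp15, a phosphatase of differentiating oligodendrocytes, gave 0.28, 0.18, 0.43 and 0.24 (mean 0.28 ± 0.06, adjusted p = 0.0475). Neu4, a sialidase, was not well above background in any WT sample and was at least 1.18-fold higher in KO. Its adjusted p of 0.0493 in limma is that of the fitted ratio, which rests on those dim WT signals. The bound itself was not tested. That bound sets the mean KO level against the higher of the WT level and the lowest level well above background, and is open to dye bias. Under median centring in place of loess, Neu4 was below 0 (-0.41) and Dusp15 near 0 (-0.04), and with any 1 array left out none of the 6 genes passed (adjusted p = 0.0763 to 0.232). All 6 also lost their call with outlying local backgrounds kept (adjusted p = 0.120 to 0.196) and with a robust, intensity-trended eBayes (0.0766 to 0.0770). With Feature Extraction's processed signals Nkx2-2 (adjusted p = 0.0694), Gpm6b (0.136) and Fyn (0.0677) did not pass. Neu4 did not pass with the authors' deposited values (0.0671), nor Fyn in a fit with no block for the shared array (0.0795). Averaging the probes of a gene gave -0.068 for Nkx2-2 (adjusted p = 0.474), -0.13 for Tcf7l2 (0.233) and 0.049 for Dusp15 (0.501). Over the alternatives that gave a value, the mean ranged from -0.63 to -0.068 for Nkx2-2, -1.02 to -0.13 for Tcf7l2, -0.24 to -0.17 for Fyn, and 0.15 to 0.78 for Gpm6b.

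Genes that define mature and immature oligodendrocytes did not pass. Mog, a surface protein of the outer myelin layer, gave -0.33, -0.06, -0.01 and -0.67 (mean -0.27 ± 0.13, adjusted p = 0.211). Fa2h, which hydroxylates myelin lipid, gave -0.25, 0.04, 0.06 and -0.52 (adjusted p = 0.351). Their most negative ratio was on hippocampus replicate 2, as for the members other than Mbp. Olig2 gave -0.56, -0.23, -0.17 and -0.33 (mean -0.32 ± 0.08, adjusted p = 0.0627), while Sox10, its partner in the lineage, had a mean of -0.07 ± 0.07 (adjusted p = 0.545). The precursor genes Pdgfra, a growth factor receptor, and Cspg4, the NG2 proteoglycan, had means of 0.11 ± 0.04 (adjusted p = 0.159) and -0.23 ± 0.06 (adjusted p = 0.0713).

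In single tissues the genes with the smallest p were mostly others than myelin proteins. In cortex they were Bmp4 (0.39 ± 0.08, adjusted p = 0.126), Fyn (-0.27 ± 0.06), Olig2 (-0.40 ± 0.11), Itpr2 (-0.27 ± 0.08) and Tcf7l2, with adjusted p of 0.126 to 0.168. The fitted cortex value of Tcf7l2 is left out here, because its WT cortex signals were not well above background. Bmp4 is a ligand that restrains oligodendrocyte maturation and Itpr2 a calcium channel of newly formed oligodendrocytes. In hippocampus they were Tcf7l2 (-0.41 ± 0.06, adjusted p = 0.0811), Gpm6b (0.34 ± 0.06), Neu4, Nkx2-2 (-0.41 ± 0.08) and the ligand Bmp7 (-0.84 ± 0.18), with adjusted p up to 0.108.

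On the array of hippocampus replicate 2, lists of other tissues also stood far from 0. On hippocampus replicate 2 the median ratio was -0.54 for mature oligodendrocyte markers (25 of 29 below 0), -0.41 for myelin proteins and -0.39 for myelin lipid genes, but 0.01 for oligodendrocyte precursor genes (10 of 20 below 0). On the same array it was -2.80 for choroid plexus markers (14 of 14 below 0), -1.53 for leptomeninges (11 of 12), -1.08 for thalamus (9 of 11) and 0.09 for neurons (3 of 14). On hippocampus replicate 1, where the members' median was 0.04, it was -0.97 for leptomeninges (12 of 12 below 0), 0.08 for choroid plexus (5 of 14) and -0.08 for thalamus (7 of 11). Averaged over the thalamus list, the log2 level was 9.59 and 9.72 in the KO hippocampus samples, against 9.77 and 10.81 in the WT hippocampus samples. Over the choroid plexus list it was 8.45 and 9.02 in KO hippocampus, against 8.34 and 11.96 in WT hippocampus. WT hippocampus replicate 2 was the high sample in both lists.

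The single markers below are among those with the largest ratio of their list on any 1 array. An extreme array is thus built into the choice, and they add no support to the list values. Prkcd, a kinase of thalamic relay neurons, had 11.43 and 10.90 in KO hippocampus, against 11.50 and 13.39 in WT hippocampus, and Zic1 had 10.46 and 10.27, against 11.84 and 13.13. Ttr, the transthyretin that choroid plexus makes, had 11.32 and 13.83 in KO hippocampus, against 10.50 and 17.82 in WT hippocampus. Whether thalamus, choroid plexus or white matter carried along at dissection has a part in the members' ratios was not tested. In cortex the choroid plexus markers had 11.62 and 10.83 in KO, against 11.01 and 8.70 in WT (ratio medians 0.54 and 2.17), where the members' medians were -0.25 and -0.01.

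**Figure D4:**
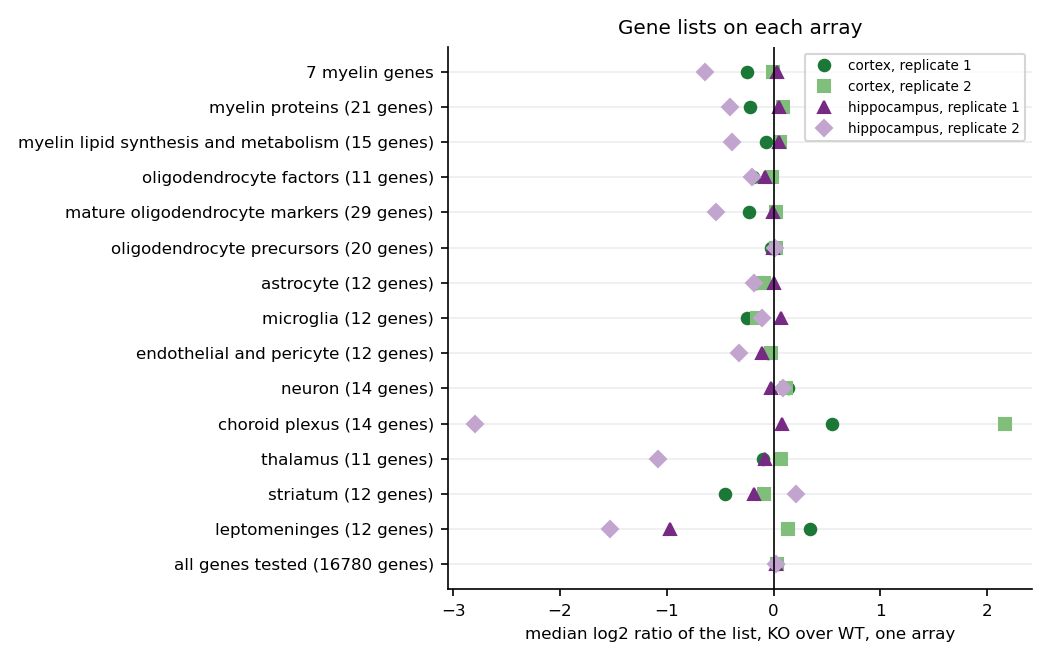
Median log2 ratio of KO over WT (x axis) of each gene list (rows, with the number of genes tested), 1 point per array. On hippocampus replicate 2 the 7 myelin genes stand at -0.64, the mature oligodendrocyte markers at -0.54, the thalamus list at -1.08 and the choroid plexus list at -2.80, while the oligodendrocyte precursors stand at 0.01.

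Among further lists, the median ratio on hippocampus replicate 2 was -0.20 for oligodendrocyte transcription factors (8 of 11 below 0), -0.18 for astrocyte genes (9 of 12 below 0), -0.11 for microglial genes (10 of 12) and -0.33 for endothelial and pericyte genes (11 of 12). Gfap, an astrocyte filament, gave -0.53, -0.99, -0.39 and -1.22 over the arrays (-0.78 ± 0.16, adjusted p = 0.0509). Its ratio was below 0 on both arrays of each tissue. Gfap passed with median centring (adjusted p = 0.0224), no filter (0.0372), the authors' deposited values (0.0392) and every probe tested (0.0453). It also passed in a fit with no block for the shared array (0.0204), and not under the other alternatives. In the mean of cortex and hippocampus, the microglial complement gene C1qa (-0.53 ± 0.05, adjusted p = 0.0249) and the endothelial claudin Cldn5 (-0.59 ± 0.07, adjusted p = 0.0279) were lower in KO. The microglial gene Fcrls was higher (0.76 ± 0.04, adjusted p = 0.0137). These 3 genes kept their direction under every alternative tried and lost the call with any 1 array left out (adjusted p = 0.0720 to 0.131), with outlying local backgrounds kept (0.108 to 0.114) and with the robust, intensity-trended eBayes (0.0766). Their part in the members' values was not tested.

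Cortex and hippocampus were compared within one genotype, and so within one dye. None of the 7 members differed between the tissues in KO (0 of 7, against 14.8% of genes called) or in WT (0 of 7, against 15.0%). Cortex over hippocampus ranged from -0.22 ± 0.15 for Mbp (adjusted p = 0.407) to 0.07 ± 0.18 for Mag (adjusted p = 0.866) in KO, and from -0.21 ± 0.23 for Cldn11 (adjusted p = 0.602) to -0.08 ± 0.18 for Mag (adjusted p = 0.821) in WT. In KO 4 of 7 members lay below 0, and in WT 7 of 7. Their medians were -0.01 in KO and -0.17 in WT, where the medians of all genes were -0.012 and -0.025. The 95% intervals reached from -0.71 to 0.56 in KO and from -0.75 to 0.40 in WT.

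By group means of the brightest probe, Mbp had 13.20 in cortex and 13.42 in hippocampus of KO, and 12.84 and 12.96 in WT. Cldn11 had 13.11 in cortex and 13.09 in hippocampus of KO, and 13.07 and 13.28 in WT. Mal had 14.64 and 14.77 in KO, and 15.05 and 15.23 in WT. None of these differences passed limma's test. The values of cortex and hippocampus did not overlap for Mbp in KO and for Cnp, Cldn11 and Mal in WT. The share of all genes without such overlap was not counted, so this shows nothing particular to the members.

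Among the 96 oligodendrocyte genes, 4 were higher and 6 lower in cortex than in hippocampus within KO, or 10 of 96 against 14.8% of all genes. Within WT 2 were higher and 3 lower, or 5 of 96 against 15.0%. St18, a zinc finger factor, had log2 levels of 7.80 and 7.95 in KO cortex, against 9.99 and 9.75 in KO hippocampus (-1.99 ± 0.11, adjusted p = 0.000126). It had 7.92 and 7.86 in WT cortex, against 9.79 and 9.62 in WT hippocampus (-1.81 ± 0.11, adjusted p = 0.000162). Zeb2, a repressor needed for myelination that neurons also express, was lower in cortex in both genotypes, with -0.86 ± 0.07 in KO (adjusted p = 0.000568) and -0.90 ± 0.07 in WT (adjusted p = 0.000426). Efnb3, an ephrin, was lower too, with -0.77 ± 0.13 in KO (adjusted p = 0.0100) and -0.73 ± 0.13 in WT (adjusted p = 0.0123). Dusp15 was higher in cortex, with 0.63 ± 0.10 in KO (adjusted p = 0.00820) and 0.73 ± 0.10 in WT (adjusted p = 0.00434).

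The remaining calls were made in one genotype. Klk6, a protease of mature oligodendrocytes, had 9.10 and 9.31 in KO cortex, against 7.92 and 7.48 in KO hippocampus (1.51 ± 0.28, adjusted p = 0.0131). Bmp7 (1.12 ± 0.26, adjusted p = 0.0331) and Bmp4 (0.97 ± 0.22, adjusted p = 0.0289) were higher in KO cortex, and Ptprz1, a receptor phosphatase of precursors and astrocytes, was lower there (-0.54 ± 0.11, adjusted p = 0.0197). Neu4 (-0.39 ± 0.08, adjusted p = 0.0179) and Vcan, a matrix proteoglycan (-0.37 ± 0.09, adjusted p = 0.0322), were also lower in KO cortex. These last 2 fell outside the 8 largest values, were added after their values were seen and were not followed through the alternatives. Pcdh15, a protocadherin of precursors, was higher in WT cortex (0.44 ± 0.11, adjusted p = 0.0355). The difference between genotypes is the cortex minus hippocampus contrast of KO over WT above, which called no gene. St18 and Zeb2 passed under every alternative tried (adjusted p up to 0.0298), while Efnb3, Dusp15, Klk6, Bmp7, Bmp4, Ptprz1 and Pcdh15 each lost the call with at least 1 array left out (adjusted p up to 0.272). Markers of striatum, a region below the cortex, were higher in cortex for 12 of 12 genes in each genotype, and their part in these values was not tested.

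By their brightest probes, the members other than Mbp shared a profile over the 8 samples. With each sample's level taken as its difference from the mean of its dye, the mean profile of the 7 genes was -0.15 and 0.11 in KO cortex, 0.20 and -0.15 in KO hippocampus, -0.10 and -0.06 in WT cortex, and 0.00 and 0.16 in WT hippocampus. Pearson's r with that profile, of which each gene is a part, was 0.96 for Cnp and Ugt8a, 0.95 for Mal, 0.92 for Cldn11, 0.85 for Mag, 0.73 for Mobp and, by its brightest probe, -0.33 for Mbp (n = 8 samples, which share arrays in pairs). The 15 pairs of members without Mbp had r of 0.47 to 0.97, and the 6 pairs with the brightest Mbp probe -0.67 to -0.12. With A_52_P329451 standing for Mbp, the same 6 pairs had r of 0.59 to 0.89, so the sign turns with the choice of probe. Mal and Ugt8a were the closest pair.

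Of 2913 other genes well above background in all 8 samples and with an SD of at least 0.2, those most like the mean profile were 1700047M11Rik (r = 0.91), Anln (0.90), Serpinb1a (0.86), Prr18 (0.86), B930025B16Rik (0.86), Trf (0.85), Bcas1 (0.84) and BB166591 (0.84), over the same 8 samples. Anln, Serpinb1a, Trf and Bcas1 also stand in the list of mature oligodendrocyte markers. Trf encodes transferrin, and Anln the actin-binding anillin. Anln was highest in KO hippocampus replicate 1 (0.35 above the mean of its dye) and lowest in KO hippocampus replicate 2 (-0.20), as were Mal (0.43 and -0.31) and Ugt8a (0.28 and -0.22).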

How the data were processed

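RNA of each sample was amplified and labelled from 0.5 µg with Agilent's QuickAmp kit, per the labels' protocols. Agilent's Feature Extraction 10.1.1.1 produced the deposited scanner intensities and log10 ratios. Probe positions in mm9 are given per the file headers. The log10 ratios were not used. The deposited value table holds log2 values per channel by the authors (column medians 8.21 to 8.25, log ratios r = 0.960 to 0.977 with those used here, in the direction KO over WT), with limma named in the submitters' processing notes and its settings not given in the sources used here. Files of KO and WT of one tissue and number were byte-identical, so 8 samples are the channels of 4 arrays.

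Intensities were background-corrected in limma 3.58.1 (R 4.3.3) by normexp (offset 50), with outlying local backgrounds replaced by the array median, and normalised by loess (span 0.3, 1377 of 44397 spots as controls at weight 0). The brightest probe stood for a gene. A gene was tested if, in 1 or more of the 4 groups, that probe was well above background on both arrays. This left 16780 genes, with 51 dropped for outlying spots. KO over WT was fitted on log ratios (lmFit, eBayes, 2 residual and 2.62 prior degrees of freedom), and tissues on Aquantile-normalised channels with array as a random block (correlation 0.191). The threshold was a Benjamini-Hochberg adjusted p of 0.05. Deviations of KO and WT on one array correlated (r = 0.33 in cortex, 0.20 in hippocampus), the shared array being the pairing used. Those of cortex and hippocampus of one number gave r = -0.08 in WT and 0.24 in KO, which does not settle whether numbers pair tissues. Scripts were tested on simulated data.

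The members and gene lists were chosen with earlier results of these data known. Named were the members, 6 fixed lineage genes, list genes called by size (or the 5 with the smallest p), 2 markers per other list with the largest ratio on an array, and the 8 genes most like the mean profile (SD at least 0.2). Some genes these rules pick are not reported here. Array symbols are kept. Accessions of 7 of 7 members matched RefSeq's annotation.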

Additional observations from a re-analysis of the deposited data

Results flagged for a closer look

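For 7 named genes, none a member, the ratios of KO over WT lay above 0 on both cortex arrays and below 0 on both hippocampus arrays. The test of that difference, limma's cortex minus hippocampus contrast, called none of them after adjustment over all genes (adjusted p = 0.875 to 0.9999). Among oligodendrocyte genes it was 0.59 ± 0.12 for Bmp4, 2.41 ± 0.94 for Enpp2 and 0.71 ± 0.41 for Klk6. Enpp2, a lysophospholipase of oligodendrocytes that choroid plexus also makes, gave 0.54 and 1.20 in cortex and -0.15 and -2.92 in hippocampus. Klk6 gave 0.03 and 0.06 in cortex and -0.06 and -1.27 in hippocampus. Among markers of other cells it was 0.85 ± 0.16 for Vtn (pericytes), 4.22 ± 1.53 for Kcnj13 (choroid plexus), 2.49 ± 0.31 for Slc13a4 and 1.91 ± 0.26 for Col1a2 (leptomeninges). The share of all genes with this pattern of signs was not counted. The 7 genes were named for small p-values or large ratios in these same data, so the pattern is partly built into the choice.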

How the results depend on the processing

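Under every alternative 0 of 7 members were called, except that Mbp passed under median centring (1 of 7 in cortex, in hippocampus and in the mean of both tissues) and in a fit with no replicate block, which drops the shared array (1 of 7 in the mean, adjusted p = 0.0401). With no replicate block 295, 450 and 2421 genes were called in cortex, hippocampus and the mean, against 10, 3 and 1828. Replicate number as a replicate block left the tissue comparisons at 2454 genes in KO and 2550 in WT. It changed no call of a member. For cortex, hippocampus and the mean, the genes called were 0, 7 and 3 with outlying local backgrounds kept, 139, 373 and 1209 with Feature Extraction's processed signals, 7369, 8374 and 10524 with median centring, 17, 10 and 995 with a strict filter, 28, 10 and 3366 with no filter, 36, 25 and 1785 with probes averaged, 0, 0 and 0 with a robust, intensity-trended eBayes, 22, 16 and 2361 with the authors' deposited values, and 10, 1 and 3199 with every probe tested. Leaving out an array gave 0, 0 to 1 and 0 to 1 genes. Processed signals called 1234 genes between tissues in KO and 1144 in WT, and leaving out an array 644 to 1936 and 723 to 1978, for which the array correlation of the full fit was kept. Median centring was taken over the genes tested, since over all spots it left their median 0.49 to 0.58 above 0.

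Signs turned as follows, and the cause was not tested. In cortex, with outlying backgrounds kept, Mobp was -0.13, Cldn11 -0.13 and Pdgfra -0.018. With processed signals Cldn11 was -0.023 and Sox10 0.0096. Median centring gave Cnp 0.088 and Sox10 0.13, probe means Tcf7l2 0.036, and deposited values Sox10 0.0052. In hippocampus, median centring gave Mobp 0.11, Cldn11 0.064, Neu4 -0.18 and Sox10 0.044. In the mean it gave Mobp 0.18, Cnp 0.025, Cldn11 0.15, Neu4 -0.41 and Dusp15 -0.035. In cortex minus hippocampus it gave Mal -0.028, and probe means Mbp 0.015. For cortex over hippocampus within KO, outlying backgrounds gave Cnp -0.021, Cldn11 -0.063 and Ugt8a 0.023, processed signals Mobp 0.012, and median centring Cnp -0.030 and Cldn11 -0.044.

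Leaving out an array gave these ranges where a sign turned. In cortex they were -0.11 to 0.19 for Mobp, -0.041 to 0.12 for Cldn11, -0.25 to 0.036 for Fa2h and -0.16 to 0.14 for Sox10. In hippocampus they were -0.30 to 0.0029 for Mobp, -0.95 to 0.035 for Mal, -0.63 to 0.26 for Cldn11, -0.69 to 0.14 for Ugt8a and -0.52 to 0.060 for Fa2h. In the mean they were -0.13 to 0.020 for Mobp and -0.30 to 0.15 for Cldn11. In cortex minus hippocampus they were -0.18 to 0.46 for Mag, -0.43 to 0.22 for Mbp, -0.11 to 0.47 for Cnp, -0.45 to 0.54 for Mal, -0.22 to 0.67 for Cldn11 and -0.31 to 0.52 for Ugt8a. Within WT they were -0.22 to 0.062 for Mag and -0.31 to 0.066 for Mbp, and within KO -0.12 to 0.25 for Mag, -0.31 to 0.30 for Mobp, -0.14 to 0.17 for Cnp, -0.50 to 0.24 for Mal, -0.35 to 0.39 for Cldn11 and -0.31 to 0.19 for Ugt8a. Without replicates the lone array of a tissue is assumed to vary like the other tissue's. The dim Cy3 channel limits WT values: Neu4 was not well above background in WT and Tcf7l2 not in WT cortex.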
